A study of Mus musculus with 3 samples.

Results

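The circadian clock genes described here are Arntl, Clock, Npas2, Per1, Per2, Cry1, Cry2, Nr1d1, Nr1d2 and Dbp, which are 10 of the 22367 protein-coding genes of GENCODE release M1 on the mouse NCBI37/mm9 genome. They were chosen for their role in the clock, with earlier results of these data known, so their shares beside all genes are descriptive. For each one the RARα peaks, the RXRα signal and the input signal were read within 10 kb of the gene start and over the gene body. The libraries came from the livers of wild type male C57BL/6 mice, 3 months old by the sample labels, in a study of the roles of RXRα and RARα in the liver. There were 3 libraries of genomic DNA, with 1 precipitated by an anti-RXRα antibody, 1 by an anti-RARα antibody, and 1 of input chromatin from the RXRα experiment. The time of day at which the livers were taken and the number of livers per library are not given in the sources used here, so the phase of the daily cycle that these values hold for is unknown. With 1 library per antibody no value has a replicate, no test between libraries was possible, and the intervals given cover counting error only.

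The clock of a mammalian cell is a loop of transcription. ARNTL (also called BMAL1) pairs with CLOCK or with its relative NPAS2, and the pair binds E-boxes to activate the Per, Cry, Nr1d and Dbp genes. The PER and CRY proteins then repress that pair, while the nuclear receptors REV-ERBα and REV-ERBβ, made from Nr1d1 and Nr1d2, repress Arntl, Clock, Npas2 and Cry1 through the RORE, an element they share with the ROR activators. DBP carries the rhythm on to liver genes through the D-box. RXRα and RARα are nuclear receptors for retinoids, and RXRα is also the partner of many other receptors of liver metabolism.

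The RXRα and input tracks held signals that corresponded to 9999939 and 9999292 reads, counted in bins of 32 bp with a mean of 0.603 reads per bin. The paper reports more uniquely mapped RXRα reads than this track holds, and how the difference arose is not stated. Whether the tracks, with their near-equal totals, were brought to a common depth before deposit is not stated either. All read numbers, and the counting intervals from them, are therefore those of the deposited tracks. An RXRα region was a run of bins, joined within 200 bp, in which RXRα was more than 20 times the larger of the local and the mean input, which needed at least 13 reads in a bin without input and more than 20 in a bin with 1 input read. The ratio given for a region is that of its bin with the highest ratio, called its maximum, which need not be the bin with the most RXRα reads. A RARα peak was a peak of the deposited list with a score above 20, and the depth of that library is not known from the list. A peak and a region that shared at least 25% of the narrower one were called co-localized. As the libraries hold DNA, the expression of liver markers could not be read from them.

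All 10 clock genes had an RXRα region within 10 kb of the start, against 39.8% of all protein-coding genes. A RARα peak lay within the same distance of 8 of the 10, against 52.2% of all genes, and the exceptions were Npas2 and Cry1. The same 8 genes had at least 1 co-localized peak, against 23.5% of all genes. In total the 10 starts had 44 RARα peaks and 37 RXRα regions within 10 kb. Of the 44 peaks, 19 (43.2%) co-localized, against 33.1% of the peaks near all genes. Of the 37 regions, 20 (54.1%) co-localized, against 39.4% near all genes. That share rested on Per1, Nr1d1 and Dbp, where 14 of 14 regions co-localized, since at the other genes 6 of 23 did (26.1%). The median clock gene had 3 peaks and 3.5 regions, where the median of all genes was 1 peak and 0 regions.

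The peaks were unevenly spread over the loop. Dbp had 12 RARα peaks, Nr1d1 had 10 and Per1 had 8, which together made 30 of the 44. Only 0.849% of all protein-coding genes had 8 or more. Some of these peaks abut in the deposited list, and merging abutting peaks left 28 of the 44. Most of the peaks lost by merging were at Dbp, Nr1d1 and Per1, none of which then kept 8. The share of all genes with 8 or more was not recounted after merging. Per2 had 5 peaks, Cry2 and Nr1d2 had 3 each, Clock had 2 and Arntl had 1. By role, the activators Arntl, Clock and Npas2 had 3 RARα peaks and 9 RXRα regions between them, whereas the Per genes had 13 peaks and 5 regions. The Cry genes had 3 peaks and 7 regions, the Nr1d genes had 13 and 10, and Dbp had 12 and 6. The order of the genes by RARα peaks was therefore not their order by RXRα regions, as Clock and Cry2 had 5 regions each and Per1 had 2. The 2 counts were not made alike, since RXRα bins within 200 bp were joined and abutting RARα peaks were not.

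**Figure D1:**
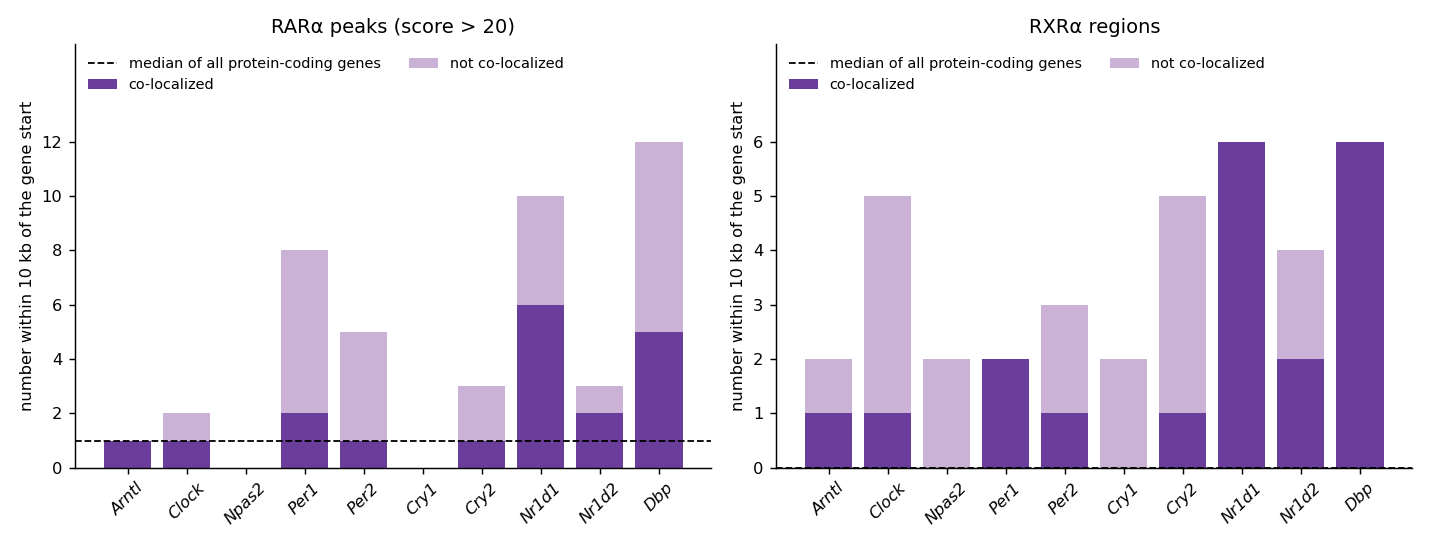
Number of RARα peaks (left) and RXRα regions (right) within 10 kb of each clock gene start, 1 library per antibody, so no error bars. The dark part of a bar is co-localized, and the dashed line is the median of all protein-coding genes (1 peak and 0 regions). Dbp, Nr1d1 and Per1 have the tallest RARα bars, Npas2 and Cry1 have none, and every region of Per1, Nr1d1 and Dbp is co-localized.

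Single peaks and regions of the clock genes were of ordinary strength. The median score of the 44 peaks was 35.5, against 36 for all peaks near a gene start, with a range from 22 to 124. For the 37 regions the median of the highest ratio was 31.5, against 34 for all, with a range from 21 to 129. Many lay close to the threshold, as 10 of the peaks had scores of 21 to 25 and 13 of the regions had ratios of 25 or less, while 15 further peaks at these genes had scores of 16 to 20 and were not counted. Of the 44 peaks, 15 (34.1%) were within 1 kb of the start of their clock gene. For the peaks near all genes distance was taken to the nearest start of any gene, and 61.9% were within 1 kb. Nearest distances are never longer than distances to a given gene, so these shares are not like for like. The 34.1% rested on Per1, Nr1d1 and Dbp, with 6 of 30 peaks within 1 kb, whereas the other genes had 9 of 14 (64.3%). For RXRα regions the share within 1 kb was 13 of 37 (35.1%), and that of all genes, again by nearest start, was also 35.1%. By annotation, 16 RARα peaks were in introns, 13 were upstream, 6 were in a 5′ UTR, 5 were downstream of the gene and 4 were in other exons. Of the RXRα regions, 19 were upstream and 11 were in introns.

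The amount of RXRα DNA over the whole window of 10 kb on either side of the start is a measure that needs no threshold. Its ratio to input was highest at Dbp, with 960 RXRα and 179 input reads, a ratio of 5.36 (95% exact interval 4.57 to 6.33). Nr1d1 followed with 902 and 170 reads, a ratio of 5.31 (4.50 to 6.29). Nr1d2 had 562 and 114 reads, a ratio of 4.93 (4.02 to 6.08). These 3 intervals overlap, and all lie above the median ratio of all genes, 1.09. Per2 came next, with 572 and 151 reads and a ratio of 3.79 (3.16 to 4.56). Its interval overlaps those of Nr1d2 and Nr1d1 above it and those of Cry1 and Npas2 below it, and lies wholly above those of Per1, Cry2, Clock and Arntl. The lower group was Cry1 at 2.73, Npas2 at 2.68, Per1 at 2.54, Cry2 at 2.24 and Clock at 2.08, whose intervals overlap from each gene to the next. Arntl was the lowest, with 132 and 82 reads and a ratio of 1.61 (1.21 to 2.15), at the 70.1 percentile of all genes, and its interval overlaps that of Clock. All 10 genes were above the median gene, and Dbp and Nr1d1 were both at the 98.7 percentile.

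**Figure D2:**
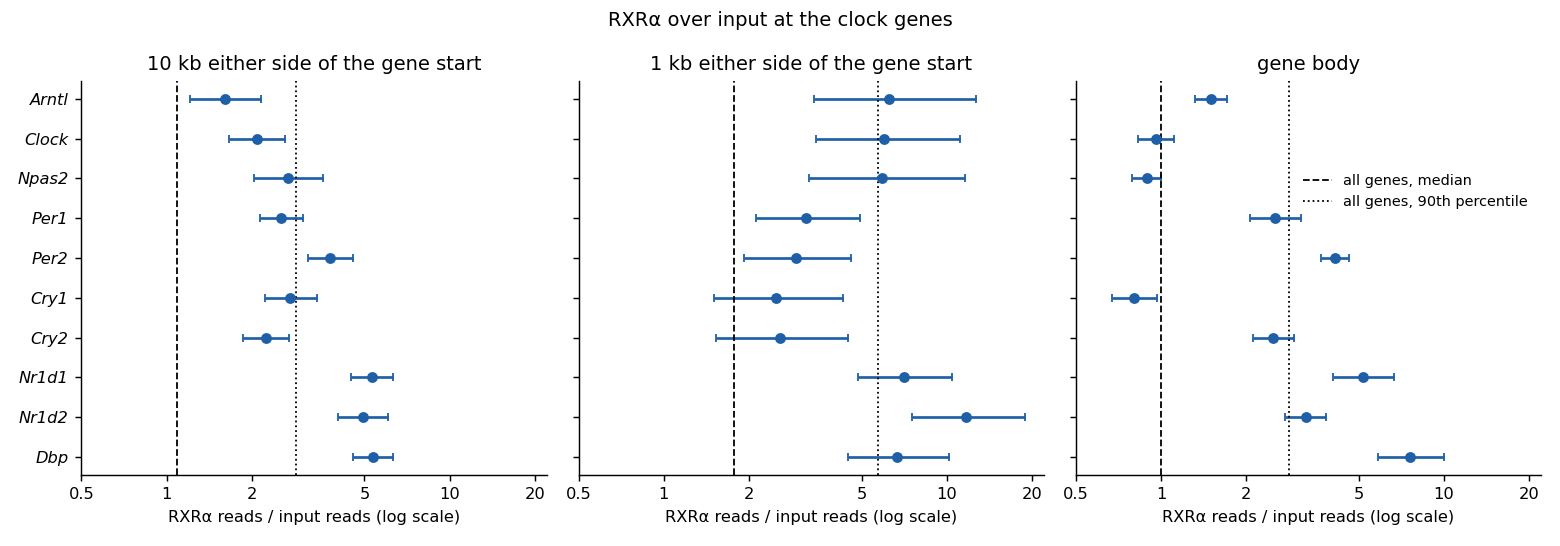
RXRα reads divided by input reads for each clock gene, on a log scale, over 10 kb either side of the start (left), 1 kb either side (middle) and the gene body (right). Points are the ratio and bars its 95% exact interval for counting error in 1 library each, with the median (dashed) and 90th percentile (dotted) of all genes. Dbp, Nr1d1 and Nr1d2 lie above the 90th percentile in all 3 panels, and the bodies of Clock, Npas2 and Cry1 lie at or below the median.

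The order changed close to the start. Within 1 kb on either side, Nr1d2 had the highest ratio, 11.64 (7.52 to 18.90), from 256 RXRα and 22 input reads. Nr1d1 had 7.03 (4.87 to 10.46) and Dbp had 6.65 (4.49 to 10.20). The activators, which were in the lower part of the order over the wide window, had similar values here, with 6.25 (3.38 to 12.63) at Arntl, 6.00 (3.45 to 11.16) at Clock and 5.92 (3.27 to 11.62) at Npas2. The lowest were Cry1 at 2.50 (1.50 to 4.31), Cry2 at 2.57 (1.53 to 4.48), Per2 at 2.93 (1.92 to 4.60) and Per1 at 3.19 (2.11 to 4.95). Of the RXRα reads within 10 kb of the start, those within 1 kb were 75 of 132 at Arntl, whereas they were 88 of 572 at Per2. Computed from the signal before rounding to whole reads, the median over the 10 genes was 6.04, against 1.77 for all genes.

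The 10 gene starts were also richer in G and C than most, with a median GC content of 66.2% within 500 bp either side of the start, against 54.7% for all genes. Their median ratio of observed to expected CpG was 0.83, against 0.55. Within the 10, the genes with the most RARα peaks had the lowest values, with a GC content of 54.8% at Nr1d1, 55.4% at Per1 and 55.5% at Dbp and CpG ratios of 0.44, 0.63 and 0.68. The other genes had 63.1% to 74.3% GC and CpG ratios of 0.77 to 1.02. The part of base composition in these counts was not tested.

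**Figure D3:**
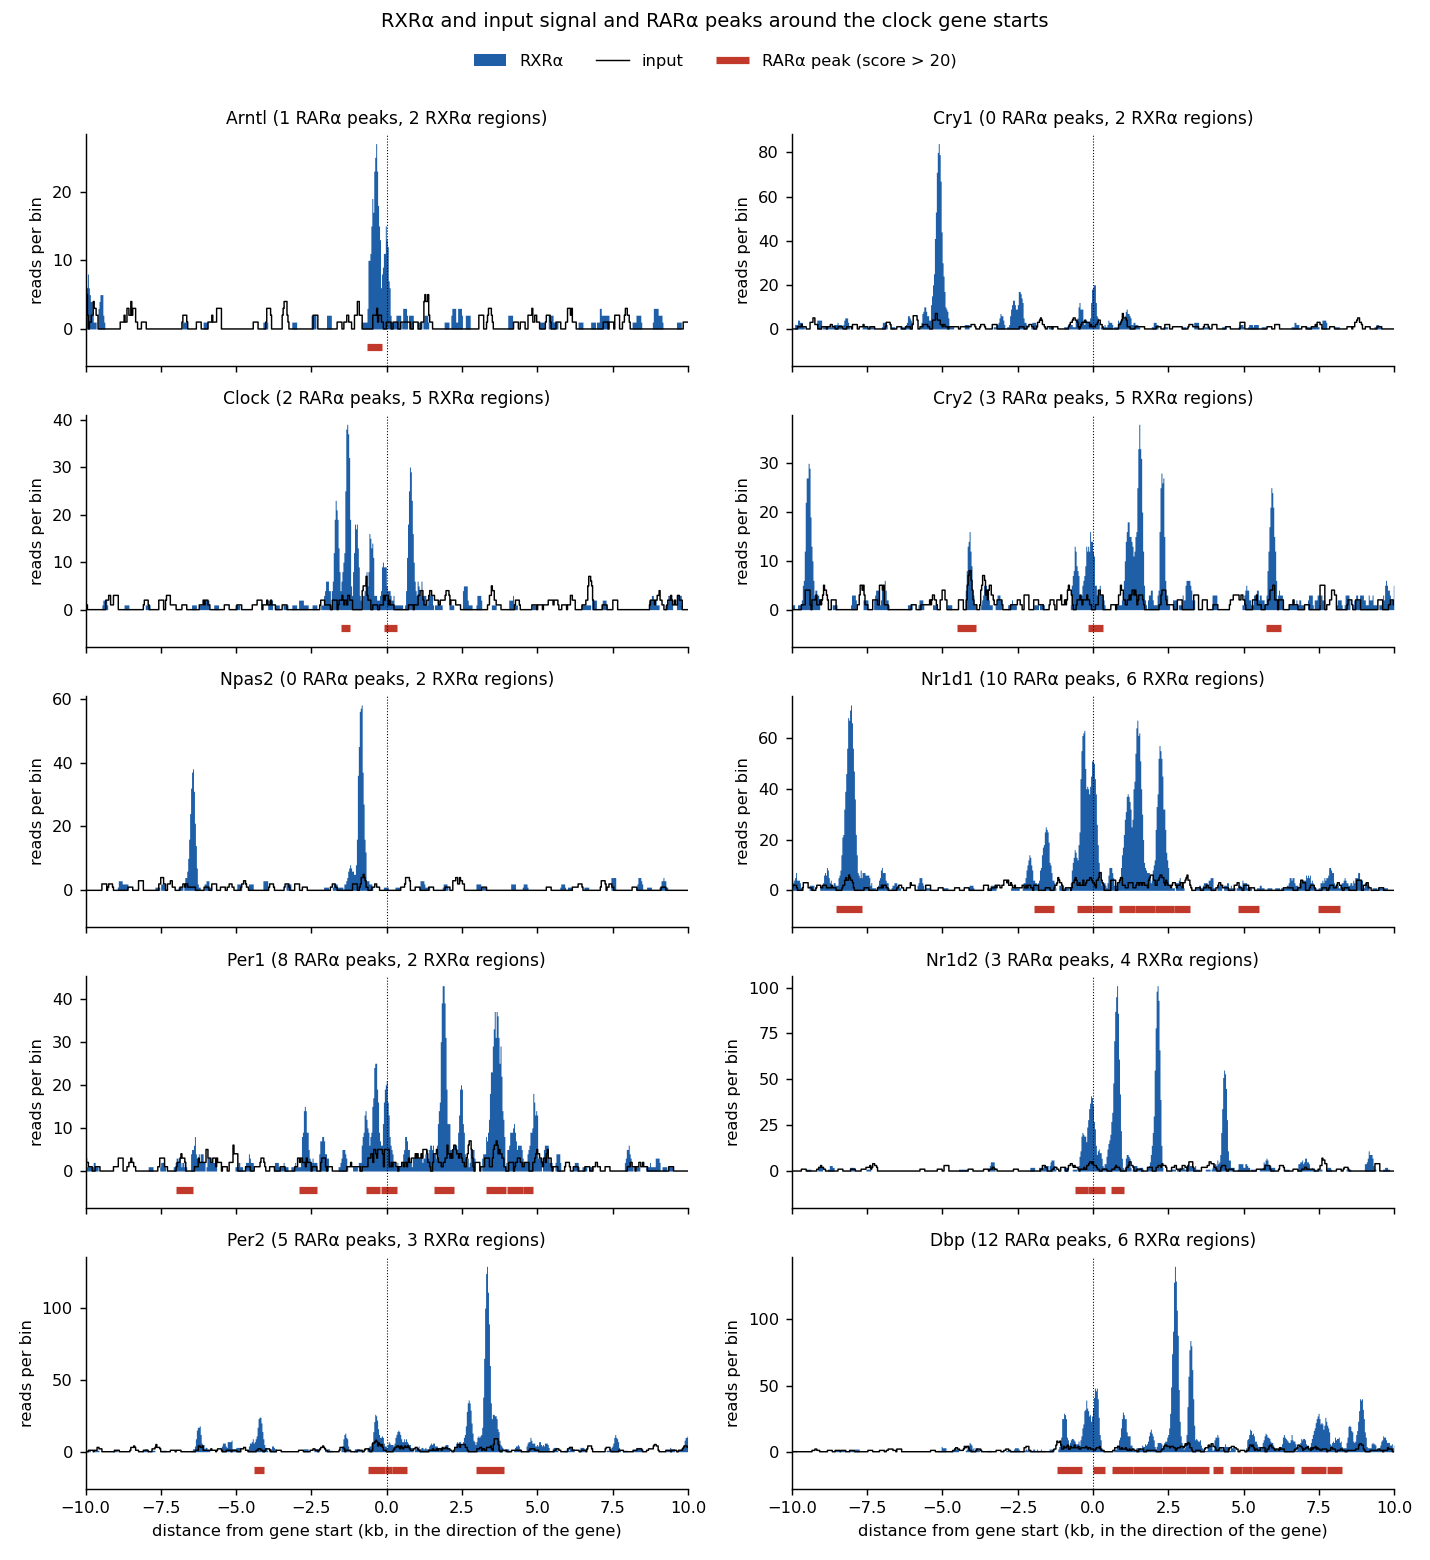
Signal of RXRα (blue) and input (black line) in reads per 32 bp bin, and RARα peaks of score above 20 (red bars), within 10 kb of each clock gene start, with distance in the direction of the gene and a separate vertical scale for each gene. The highest RXRα bins, at Dbp (140), Per2 (129) and Nr1d2 (101), are inside the genes, those of Npas2 (58) and Cry1 (84) are upstream, and no RARα bar is drawn for Npas2 or Cry1.

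Arntl encodes BMAL1, the partner of CLOCK or NPAS2 in the activator pair. The gene (chr7:120350979-120457636, plus strand) had 1 RARα peak near its start, at 389 bp upstream, with a score of 52 and 12.8 times more RXRα than input signal. It co-localized with the stronger of the 2 RXRα regions, at 483 bp upstream, where the highest ratio was 31.5 from 19 RXRα reads and no input read. The other region, at 19 bp upstream, had a ratio of 24.9 and overlapped only a RARα peak of score 14. Binding went on inside the gene, which is 106.7 kb long. In its introns lay 5 further RXRα regions, the strongest at 54493 bp with a ratio of 49.8 and at 53277 bp with 48, and RARα peaks of score 22 and 26 at 43446 and 61011 bp. None of these intronic peaks and regions co-localized.

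Clock encodes the partner of BMAL1. Its start (chr5:76639992-76733817, minus strand) had 5 RXRα regions within about 2 kb, at 1623, 1303, 999 and 487 bp upstream and at 777 bp into the first part of the gene. The highest ratio, 39, was at 1303 bp upstream, where a RARα peak of score 22 co-localized with it. The highest-scoring RARα peak of Clock, 31, lay in the 5′ UTR at 37 bp and had 3.09 times more RXRα than input, without a region. The remainder of the long body held no RXRα region, and its ratio of RXRα to input, 0.96 (0.83 to 1.11), was close to that of the median gene.

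Npas2, the relative that can take the place of CLOCK, had RXRα regions but no RARα peak within 10 kb of its gene start. Within 10 kb of its start (chr1:39250576-39420079, plus strand) not even a RARα peak of low score was listed. The RXRα region at 912 bp upstream had a ratio of 74.7, from 45 RXRα reads and no input read, and a bin just beside the region held 58 RXRα reads over 4 of input. A further region at 6432 bp upstream had a ratio of 38, from 38 reads over 1. Inside the gene, RXRα regions lay at 11472, 94880 and 124432 bp, and 1 RARα peak of score 30 lay at 147149 bp, apart from all of them.

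Of the 37 RXRα regions near the clock gene starts, 3 held a whole RORE within 100 bp of the centre of the maximum, and they belonged to Clock, Npas2 and Cry1. That is 8.11%, against 0.603% of the 15094 regions near all gene starts. The RORE of these searches contains a nuclear receptor hexamer, AGGTCA or GGGTCA, after an A/T-rich flank, so each match is also a hexamer match. The centre of the RORE was 9 bp from the centre of the maximum at Clock, 37 bp at Npas2 and 9 bp at Cry1. None of the 3 regions co-localized with a RARα peak. None of the 44 RARα summits near the clock genes had a RORE within 100 bp, against 0.177% of all summits. With a motif this rare, 44 windows are too few for its absence to show a difference from RXRα. Among the 10 gene starts themselves, Arntl had a RORE at 77 bp, where 0.174% of all gene starts had one within 100 bp. The bin over that RORE held 7 RXRα reads and 1 input read, which is below the threshold. Beyond 10 kb, a RORE also lay in the windows of the Arntl region at 35533 bp, the Arntl RARα peak at 43446 bp and the Npas2 region at 94880 bp. The sequences below are shown because Clock, Npas2, Cry1 and Arntl are among the known targets of REV-ERB and ROR. They are given 5′ to 3′ on the strand of the gene, from the NCBI37/mm9 genome. The RORE is in capitals as it reads on either strand. The Clock sequence is chr5:76732990-76733090 (minus strand, intron), that of Npas2 is chr1:39249598-39249698 (plus strand, upstream), that of Cry1 is chr10:84652798-84652898 (minus strand, upstream) and that of Arntl is chr7:120351042-120351070 (plus strand, at the start).
Clock: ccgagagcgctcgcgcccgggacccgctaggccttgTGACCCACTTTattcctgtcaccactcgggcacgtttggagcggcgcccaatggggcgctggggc
Npas2: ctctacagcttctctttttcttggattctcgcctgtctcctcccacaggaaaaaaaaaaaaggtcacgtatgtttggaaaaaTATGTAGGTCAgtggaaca
Cry1: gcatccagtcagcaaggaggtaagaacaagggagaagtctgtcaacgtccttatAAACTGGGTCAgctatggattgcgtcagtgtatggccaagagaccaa
Arntl: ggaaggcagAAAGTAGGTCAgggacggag

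Per1 encodes a period protein, a repressor of the activator pair that also responds to light and hormones. The gene (chr11:68908719-68923462, plus strand) had 8 RARα peaks and 2 RXRα regions. The RARα peak with the highest score, 76, was in an intron at 96 bp and had 33 RXRα and 12 input reads, an enrichment of 2.86, so it had no region. Both regions were farther inside the gene, at 1857 bp with a ratio of 43 and at 3473 bp with a ratio of 23, and co-localized with RARα peaks of score 55 and 51. The other RARα peaks of Per1 had scores of 22 to 48 and enrichments of 1.48 to 5.14. One of them, at −6659 and with the lowest enrichment, was only 68 bp from the start of Vamp2, a neighbouring gene. Per1 thus had many listed RARα peaks, some of them abutting, beside few RXRα regions, whose bins were joined within 200 bp.

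Per2, the other period gene described here, had its strongest RXRα binding inside the gene. Near its start (chr1:93312561-93355907, minus strand) lay RARα peaks of score 36 at 403 bp upstream and at 292 bp, and of score 33 at 92 bp, and none of these had an RXRα region. The strongest RXRα region was in an intron at 3363 bp, with a ratio of 124 from 124 RXRα reads over 1 input read. A RARα peak of score 24 co-localized with it, which is close to the threshold. A region beside it, at 2755 bp, had a ratio of 59.7 from 36 reads and overlapped only a RARα peak of score 14. Binding continued far into the gene. The whole body, 43.3 kb long, held 7 RARα peaks and 9 RXRα regions, and its 1570 RXRα and 381 input reads gave a ratio of 4.12 (3.68 to 4.62), the 95.9 percentile of all bodies. The RARα peak of the highest score in the body, 62, was at 16412 bp, where it had 18.3 times more RXRα than input and co-localized with a region of ratio 96.2. Peaks of score 45 and 27, at 13242 and 19262 bp, co-localized with regions as well. At 30502 bp a RARα peak of score 60 stood alone, with 17 RXRα and 9 input reads.

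**Figure D4:**
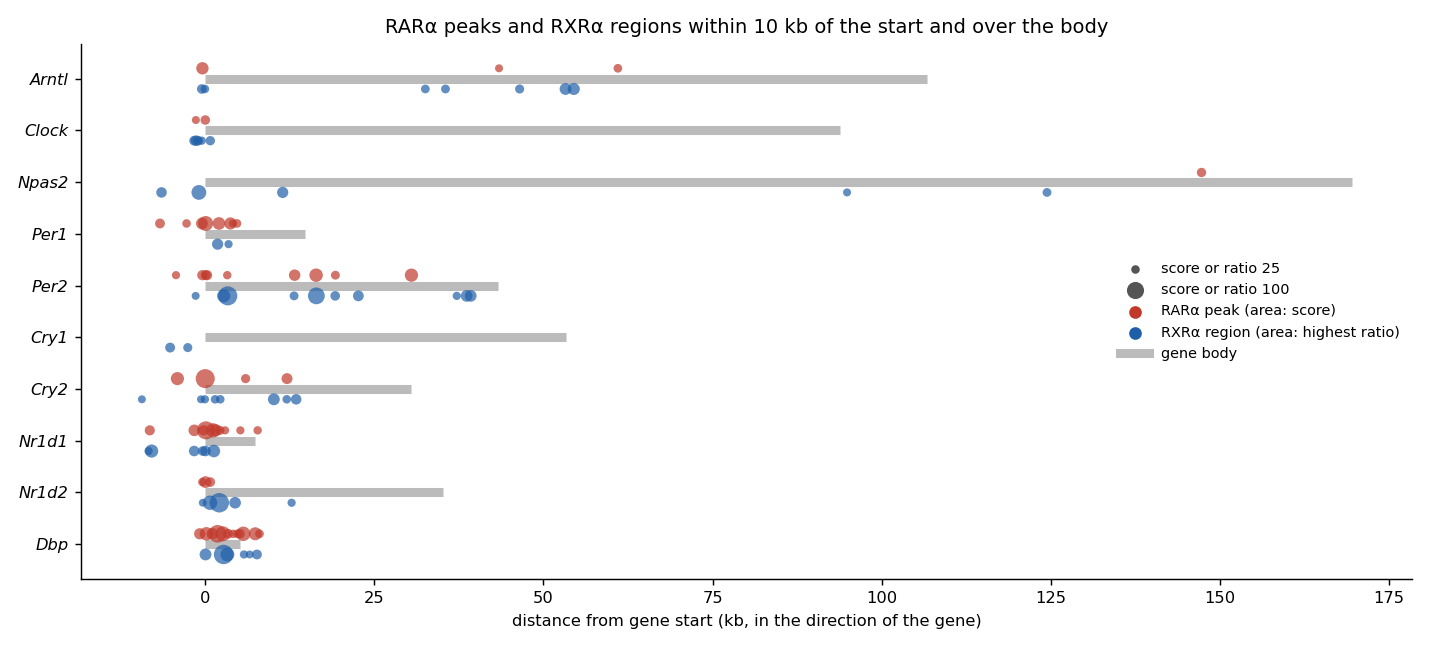
Positions of RARα peaks (red, above) and RXRα regions (blue, below) within 10 kb of the start and over the body (grey) of each clock gene, in kb from the start in the direction of the gene. The area of a dot is the peak score or the highest ratio of the region. Per2 has both kinds along much of its body, Nr1d1 and Dbp have dots over most of a short body, and the bodies of Clock and Cry1 are empty beyond 10 kb.

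Cry1 encodes a cryptochrome, the strong repressor of the loop. Like Npas2 it had RXRα regions and no RARα peak of score above 20 within 10 kb of its start (chr10:84594447-84647799, minus strand). Only peaks of score 16 and 14 were listed there. Both RXRα regions were upstream. That at 5161 bp, shown above for its RORE, held the bin with the most RXRα reads, 84 over 4 of input, and the ratio of the region was 33.5, from 67 reads over 2. The other, at 2553 bp upstream, had a ratio of 28.2 from 17 reads and no input read. At the start itself the signal reached 20 RXRα reads over 1 input read in a bin, which is at the limit of the threshold and was not called. The body of Cry1 held no peak and no region, and its ratio of 0.80 (0.67 to 0.97) was the lowest of the 10.

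Cry2, the other cryptochrome gene, had the single RARα peak with the highest score of all 44, 124. It lay at 25 bp, in a coding exon (chr2:92243803-92274200, minus strand), with 28 RXRα and 6 input reads, an enrichment of 4.76. It co-localized with a weak RXRα region at 24 bp upstream, of ratio 23.2. The 5 regions near the Cry2 start had ratios of 21.6 to 25, and each of the other 9 clock genes had a region above 30. Stronger RXRα binding was deeper in the gene, at 10168 bp with a ratio of 48 and at 13464 bp with 38.2. There a RARα peak of score 41 at 12115 bp co-localized with a region of ratio 25. The intronic sites from 2248 bp on also lie in the overlapping transcript D930015M05Rik.

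The E-box was found by the letters CACGTG, which read the same on both strands. It was within 100 bp of 5 of the 44 RARα summits (11.4%, against 5.83% of all summits near gene starts) and of 4 of the 37 RXRα maxima (10.8%, against 5.51%). All of these belonged to Nr1d1 and Dbp. Of the 10 gene starts, Cry1 had an E-box within 100 bp, at position −57, against 5.57% of all gene starts, and the bin over it held 12 RXRα reads and 2 input reads. Below are the 4 RXRα maxima of Nr1d1 and Dbp with an E-box, and the E-box of the Cry1 start, with CACGTG in capitals, 5′ to 3′ on the strand of the gene. They are shown because the E-box is the site of the activator pair, and all 4 maxima lie in regions that co-localized with a RARα peak. In Nr1d1 the upstream sequence is chr11:98636869-98637019 and the intronic one chr11:98635173-98635323 (both minus strand). In Dbp the inner sequence is chr7:52963141-52963291, in an exon of a non-coding transcript, and the downstream one is chr7:52966117-52966267 (both plus strand). The Cry1 sequence is chr10:84647845-84647868 (minus strand).
Nr1d1 upstream: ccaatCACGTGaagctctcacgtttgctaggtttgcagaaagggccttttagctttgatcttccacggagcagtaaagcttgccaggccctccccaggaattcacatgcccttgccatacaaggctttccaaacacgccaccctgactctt
Nr1d1 intron: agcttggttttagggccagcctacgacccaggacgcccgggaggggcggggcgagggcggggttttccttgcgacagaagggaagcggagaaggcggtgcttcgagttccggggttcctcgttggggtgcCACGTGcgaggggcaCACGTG
Dbp inner: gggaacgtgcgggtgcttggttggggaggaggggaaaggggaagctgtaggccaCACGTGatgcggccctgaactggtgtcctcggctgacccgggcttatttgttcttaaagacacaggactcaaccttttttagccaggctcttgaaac
Dbp downstream: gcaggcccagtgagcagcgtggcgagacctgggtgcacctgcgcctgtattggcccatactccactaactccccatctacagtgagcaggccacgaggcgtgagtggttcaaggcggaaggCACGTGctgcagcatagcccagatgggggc
Cry1 start: gccggtggtCACGTGgggtgcatg

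Nr1d1 encodes REV-ERBα, the nuclear receptor that represses Arntl and links the clock to lipid metabolism. In and around this short gene (chr11:98629246-98636647, minus strand, 7.4 kb) lay 10 RARα peaks and 6 RXRα regions, and all 6 regions co-localized. RARα peaks covered 49.2% of the body. The peak at 132 bp, in the 5′ UTR, had the highest score, 111, with 61 RXRα and 11 input reads, and it overlapped a region of ratio 38. The region of the highest ratio, 59.7, was at 7897 bp upstream, under a RARα peak of score 35 with 18.0 times more RXRα than input, the largest enrichment at this gene. Between them, a region at 1609 bp upstream had a ratio of 38.2 under a peak of score 46, and the region at 345 bp upstream had 31.5 under a peak of score 36. Inside, the region at 1303 bp reached a ratio of 54 from 54 reads over 1, and peaks of score 69 and 51 co-localized with it. The 2 capital E-boxes of the intronic sequence lie in this region. The 4 peaks that did not co-localize had scores of 23 to 29. Of these, the peak at 2192 bp had 97 RXRα and 13 input reads, and the peak at 2957 bp had 5 and 10. The peak beyond the end of the gene, at 7772 bp, lies in Thra, the thyroid hormone receptor gene that overlaps Nr1d1 on its 3′ side.

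Nr1d2 encodes REV-ERBβ. Its start (chr14:19036568-19071641, minus strand) had fewer RARα peaks, 3, and had the highest RXRα ratio within 1 kb, given above. The RARα peak at 766 bp, with a score of 32, held 140 RXRα reads over 3 input reads, which at 46.8 times was the largest enrichment of all 44 peaks, and it co-localized with a region of ratio 71. A RARα peak at 404 bp upstream, of score 24, co-localized with a region of ratio 21. The peak of the highest score, 47, was in the 5′ UTR at 66 bp and had 70 RXRα over 9 input reads without a region. The strongest region of the gene had no RARα peak of any score. It was at 2105 bp in an intron, with 78 RXRα reads and no input read at its maximum, a ratio of 129, and 101 reads over 2 in the bin with the most reads, and a further region without RARα was at 4441 bp, with a ratio of 46.5.

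Dbp encodes a D-box activator that is one of the most rhythmic transcripts of liver. The gene (chr7:52960458-52965525, plus strand) is the shortest of the 10, at 5.1 kb, and RARα peaks covered 88.3% of its body. It had 12 RARα peaks and 6 RXRα regions, all 6 co-localized. The strongest region, at 2742 bp and shown above, had a ratio of 129 from 129 RXRα reads over 1 input read. The RARα peak over it had a score of 76 and 203 RXRα against 18 input reads. The RARα peak of the highest score, 106, was the one before it, at 1847 bp in a coding exon, and had 37 RXRα and 6 input reads and no region. At the start, a RARα peak of score 62 at 202 bp and a region of ratio 48 at 70 bp co-localized in the 5′ UTR. A region at 3302 bp had a ratio of 66.4 under a peak of score 33. Over the body, 485 RXRα and 64 input reads gave a ratio of 7.58, with a lower bound of 5.83, at the 99.2 percentile of all bodies. The neighbours are close. The last 3 RARα peaks and the last 3 RXRα regions, from 5647 bp on, were nearer to the start of Rpl18 than to that of Dbp and lie over Sphk2, and the peak at 793 bp upstream lies over Car11. With each site counted only for its nearest gene, 9 RARα peaks and 3 RXRα regions remained with Dbp.

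Among the 44 RARα peaks, those of high score co-localized more often, with 11 of the 14 peaks above 50 (78.6%) and 8 of the other 30 (26.7%). The median enrichment was 6.17 and 4.76 in these groups of peaks. Most of the 14 peaks above 50 were at Per1, Nr1d1 and Dbp. Peaks near all genes, of which 33.1% co-localized, were not split by score, so whether this difference is particular to the clock genes was not tested. Over the 44 peaks the enrichment of RXRα over input ranged from 0.5 to 46.8. Its median was 10.9 at the 19 co-localized peaks and 3.44 at the other 25, a difference that the definition of a region itself brings about. The RARα peaks with the highest scores, at Cry2 (124), Nr1d1 (111) and Dbp (106), had enrichments of 4.76, 5.77 and 6.57. The highest enrichments were at Nr1d2 (46.8), Nr1d1 (18.0) and Per2 (16.3), under peaks of score 32, 35 and 23.

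**Figure D5:**
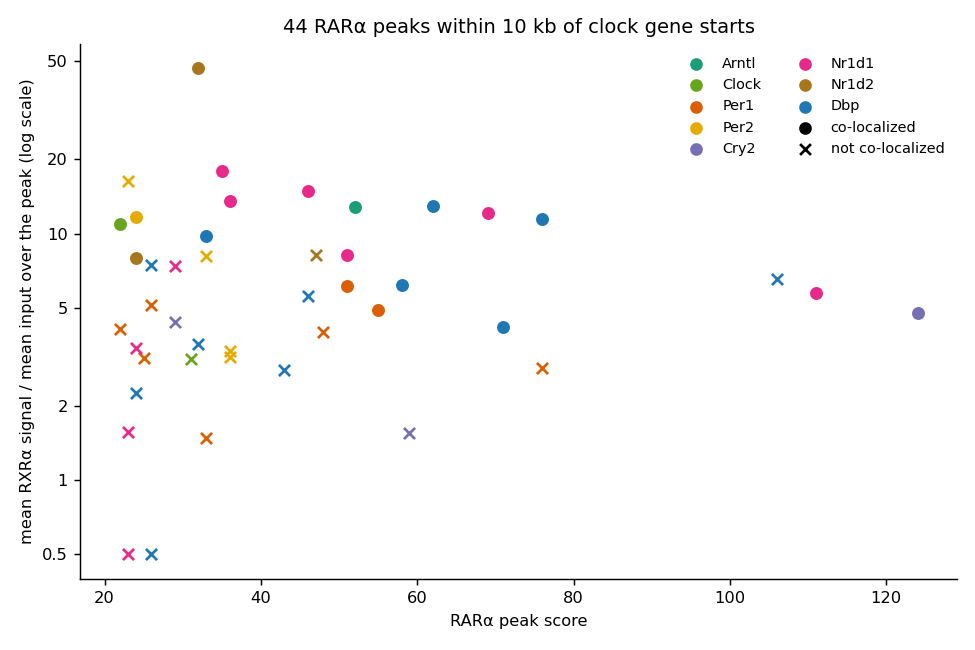
Each of the 44 RARα peaks within 10 kb of a clock gene start, by its score (horizontal) and by the mean RXRα signal divided by the mean input over the peak (vertical, log scale), coloured by gene, with filled circles for co-localized peaks and crosses for the others. The peak with the highest enrichment, 46.8 at Nr1d2, has a score of 32, and the 3 peaks with scores above 100 lie between 4.76 and 6.57.

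Conversely, 17 of the 37 RXRα regions did not co-localize with a RARα peak of score above 20. The share that did was 54.1%, against 39.4% of the regions near all genes. Of the 17 regions, 8 overlapped a RARα peak of score 20 or less, and 9 had no RARα peak of any score. The shares of these kinds among the regions near all genes were not counted. The 9 regions were the pairs at Npas2 and Cry1, those of Nr1d2 at 2105 and 4441 bp, and those of Clock at 999 bp, Per2 at 1389 bp and Cry2 at 9336 bp upstream.

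Further letters of the response elements were looked for in the same windows, within 100 bp and on both strands. The nuclear receptor hexamer, searched as AGGTCA with the variant forms AGTTCA and also GGGTCA or else GGTTCA, was near 21 of the 37 RXRα maxima (56.8%, against 60% of all) and near 17 of the 44 RARα summits (38.6%, against 31.8%). It was therefore about as frequent as in other genes, and more frequent at RXRα than at RARα in both. Pairs of hexamers as direct repeats with a spacing of 0 to 5 bases, inverted repeats with 0 or 1, or everted repeats with 6 or 8, were in none of the windows of the clock genes within 10 kb, and the most frequent of them, the direct repeat with a spacing of 1, was in 1.23% of the RXRα windows of all genes. Within 200 bp such a repeat was near 2 RARα summits of the clock genes (4.55%, against 0.531%) and 1 RXRα maximum (2.7%, against 1.6%). At that distance there was also 1 RARα summit with a spacing of 0 (2.27%, against 0.426%) and 1 RXRα maximum with a spacing of 3 (2.7%, against 0.345%). The D-box, TTACGTAA or TTATGTAA, was near 2 RARα summits (4.55%, against 0.497%), those at 292 bp of Per2 and at 1212 bp of Nr1d1, and near 0 of the 37 RXRα maxima, against 1.16%. The cyclic AMP element TGACGTCA was near 1 (2.27%, against 1.39%), at 2056 bp of Per1, and near 0 RXRα maxima, against 0.663%. The maxima of the strongest regions of Per2 (chr1:93352574-93352674, minus strand) and Nr1d2 (chr14:19069502-19069602, minus strand), both in introns and without E-box or RORE, are given here for comparison, with hexamers in capitals. Each maximum had 2 hexamers within 100 bp, of which the shorter sequences printed hold 1 for Per2, GGGTCA, and none for Nr1d2.
Per2: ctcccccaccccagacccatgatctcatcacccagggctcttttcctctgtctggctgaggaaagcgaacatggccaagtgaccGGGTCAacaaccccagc
Nr1d2: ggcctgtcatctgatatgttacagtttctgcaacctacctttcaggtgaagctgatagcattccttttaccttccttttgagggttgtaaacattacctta

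The binding was not limited to the 10 genes within the clock pathway. Of 18 other genes of the core loop and its regulators, RARα peaks were found at 14, RXRα regions at 13 and co-localized peaks at 11, against the 52.2%, 39.8% and 23.5% of all genes. Those without a RARα peak were Arntl2, Rora, Rorb and Csnk1e, and those without an RXRα region were Rora, Rorb, Timeless, Fbxl21 and Btrc. Among 12 clock output genes known to cycle in liver, all had both a RARα peak and an RXRα region, and 11 had a co-localized peak, with Elovl3, an enzyme of fatty acid elongation, as the exception. The median ratio of RXRα to input over 10 kb either side of the start was 2.71 for the 10 clock genes, 2.55 for the other loop genes and 3.22 for the output genes, against 1.09 for all genes. The median of the highest RARα score was 49.5, 42 and 58 in these lists, against 23.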

How the data were processed

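Livers of male wild type C57BL/6 mice gave 1 RXRα, 1 input and 1 RARα ChIP-seq library. The authors aligned the reads with Bowtie and called peaks with MACS, and the submitters' processing notes also name CASAVA 1.4. The study's methods name mm10 for alignment and NCBI37/mm9 for annotation, and the file headers name mm9, so NCBI37/mm9 coordinates, sequence and GENCODE M1 genes were used. The RXRα and input tracks were deposited as a signal, the coverage by extended reads in whole numbers per 32 bp bin, listing covered bins only. Each chromosome's total was a multiple of 5, the number of bins a read covers, which gave 9999939 RXRα and 9999292 input reads in the tracks as deposited. Whether these equal totals come from a normalization to a common depth is not stated in the sources used here. For RARα the deposited list of 143280 peaks gives a score per peak, whose scale is not stated, and a false discovery rate in percent, which was not used as a filter (at most 0.13% for the 44 peaks described).

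A score above 20, a distance of 10 kb, 20 times input and an overlap of 25% follow the study's methods. Scaling both tracks to the same mean, the larger of local and mean input, joining bins within 200 bp and the narrower interval as reference were chosen here. A peak counted for every gene whose start lay within 10 kb of its summit. Enrichment is the mean RXRα signal over a peak divided by the mean input, taken as at least 0.603. Intervals of read ratios are exact (Clopper-Pearson, 95%) and cover counting error only, as reads without molecular identifiers are not independent molecules. Motifs were searched within 100 bp of a summit, of the bin of highest ratio of a region or of a gene start. All 10 clock genes are named, and other genes only as neighbours of a site or as exceptions in a count. The clock genes and both comparison lists were chosen with earlier results of these data known. Alternatives changed the score, distance, fold, scaling, joining, overlap, gene start and window. No p-values were computed. The steps were tested on simulated data. Python 3.11.15, numpy 2.4.6, pandas 2.3.3, scipy 1.17.1, pysam 0.24.0 and matplotlib 3.10.9 were used.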

Additional observations from a re-analysis of the deposited data

How the results depend on the processing

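No paired analysis was possible because there was 1 library per antibody. With a RARα score above 50, 5 clock genes kept a RARα peak, without Clock, Npas2, Per2, Cry1 and Nr1d2, against 24.6% of all genes. This left 14 peaks, of which 11 co-localized, in 5 genes, against 10.9% of all genes. With no score threshold there were 118 peaks. Merging abutting peaks left 28. Within 1 kb there were 15 RARα peaks and 13 RXRα regions, and 7 peaks co-localized, in 5 genes, against 15.8% of all genes. With RXRα at 10 times input there were 57 regions, in 10 genes, against 60.2% of all genes. At that setting 33 peaks co-localized, in 8 genes, against 38.9% of all genes. With 30 times input there were 21 regions. The median ratio of RXRα to input, from the unrounded signal, was 6.04 within 1 kb of the start, against 2.71 within 10 kb. Within 200 bp the E-box was near 7 RXRα maxima (18.9%, against 9.16% of all) and 12 RARα summits (27.3%, against 10.6%). In both cases these belonged to 4 genes, with Per1 and Nr1d2 added to Nr1d1 and Dbp.

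The number of clock genes with an RXRα region stayed between 7 and 10 under each alternative tried. That 7 held within 1 kb, without Per1, Per2 and Cry1, against 21.6% of all genes. At 30 times input 9 clock genes had a region, all but Cry2, against 27.9% of all genes. Counting from any transcript start gave Npas2 a RARα peak. The other 38 values obtained under the alternatives differed from those above by at most 1.5 times. At the depth of the RXRα track a region in a bin with no input rests on as few as 13 reads, and the RARα peak list gives no read counts from which the precision of its scores could be had.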
